A study of Mus musculus with 4 samples.

Results

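Klra17 and its neighbours on distal mouse chromosome 6 form a group of lectin-like receptor genes that was measured here in osteoclast precursors with and without Piezo1, a stretch-activated cation channel. Of 9 genes proposed by symbol, 8 were found among the 12799 genes of the deposited table: the Ly49 genes Klra17 and Klra2, and the C-type lectin genes Clec12a, Clec4a2, Clec2d, Clec4n, Clec4d and Clec4e. Clec7a is not analysed here. Klra17 was chosen by its measured difference in level between the genotypes in these same libraries, and the others were selected on family and chromosome with their values already known. The genotype difference of Klra17 is therefore given as a description that supports nothing further.

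Poly(A) RNA came from bone marrow monocytes of female mice aged 12 weeks, which were taken as the non-adherent cells after 2 days of marrow culture, given M-CSF, and then grown for 3 days in M-CSF at 30 ng/mL and RANKL at 50 ng/mL, the cytokines that drive monocytes toward the bone-resorbing osteoclast. Controls carried floxed Piezo1 alleles and no recombinase (Piezo1fl/fl, n = 2), and knockouts had the floxed alleles plus the transgene Csf1r-iCre (Csf1r-iCre;Piezo1fl/fl, n = 2), in which a promoter active in the monocyte lineage drives the recombinase. Because no control carried the recombinase, its own effects and those of losing Piezo1 cannot be told apart. Strain background and pooling of animals were not stated in the labels, and the design text describes the libraries as biological replicates. The libraries held 14122118 to 18897927 gene reads, and levels are given as CPM, a gene's reads relative to a scaled library total, in which 1 read was worth 0.0544 to 0.0700 CPM. Piezo1 stood at 430 and 384 CPM in the controls and at 61.0 and 56.2 CPM in the knockouts. The osteoclast markers summed to between 60249 and 75884 CPM and the monocyte and macrophage markers to between 3354 and 4078 CPM, with 12 of 12 and 11 of 12 markers measured.

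Lectin-like receptors of this chromosomal region are type II membrane proteins that either activate or restrain myeloid and natural killer cells. Activating members such as Dectin-2 (Clec4n), MCL (Clec4d) and Mincle (Clec4e) pair with the adaptor encoded by Fcer1g and signal through the kinase Syk, a route that osteoclast precursors also use for co-stimulation. Inhibitory members carry a tyrosine motif in their cytoplasmic tails that recruits phosphatases such as SHP-1 (Ptpn6). Ly49Q, the product of Klra17, is an inhibitory receptor of myeloid cells that binds the class I molecule H2-K and has been described as a positive regulator of osteoclast formation. Ly49B, the product of Klra2, is another myeloid member of a family otherwise known from natural killer cells.

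The genes fell into 2 runs on GRCm38, and all 8 were annotated as protein-coding. Clec4a2, Clec4n, Clec4d and Clec4e lay within 0.183 Mb (chromosome 6, 123106428 to 123289870), and they were the 4 genes of that interval in the table. Clec2d, Clec12a, Klra17 and Klra2 lay within 2.07 Mb (chromosome 6, 129180615 to 131247362). Klra17 (ENSMUSG00000014543.14) spans 129831154 to 129876672 on the minus strand, and Klra2 (ENSMUSG00000030187.15) spans 131219223 to 131247362 on the same strand. The 250 bases upstream of the RefSeq start of both Ly49 genes (GRCm38.p6, each read 5′ to 3′ on the minus strand) are shown because these are the 2 Ly49 genes measured at testable levels, of which Klra17 was lower in the knockouts and Klra2 showed no difference beyond its error. Capitals mark GAGGAA, or its reverse complement TTCCTC, the core bound by the myeloid factor PU.1 and its relatives. The Klra17 stretch is chr6:129876673-129876922 and the Klra2 stretch is chr6:131247363-131247612.
Klra17: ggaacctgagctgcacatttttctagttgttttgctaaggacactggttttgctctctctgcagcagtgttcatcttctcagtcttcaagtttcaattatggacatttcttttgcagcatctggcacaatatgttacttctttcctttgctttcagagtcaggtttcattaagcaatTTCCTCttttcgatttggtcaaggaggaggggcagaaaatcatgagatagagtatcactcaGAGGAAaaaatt
Klra2: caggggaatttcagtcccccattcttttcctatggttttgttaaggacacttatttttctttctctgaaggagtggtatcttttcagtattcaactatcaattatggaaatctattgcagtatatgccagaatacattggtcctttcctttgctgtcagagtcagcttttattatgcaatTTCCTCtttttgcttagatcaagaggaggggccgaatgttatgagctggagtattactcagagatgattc
Globally aligned, the stretches were 75.2% identical. The upstream stretches of the 5 C-type lectin genes with a RefSeq entry were 46.6% to 50.5% identical to that of Klra17 under the same scoring. Those of other Ly49 genes ranged from 44.2% for Klra3, under all 5 lectins, to 79.4% for Klra4. The 6-base core was found on either strand in 5 of the 7 upstream stretches with an entry, those of Klra17, Klra2, Clec12a, Clec4d and Clec4e, and in 23.3% of 32851 stretches of that length in the RefSeq table. The motif was picked after the sequences had been seen, and a match is a string of letters, not a shown binding site.

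Ly49 genes are a family of close copies, so the distinctness of their transcripts was measured on GENCODE release M21. Of 1188 different 45-base words in the Klra17 transcripts, the length of a sequencing read, 0 occurred in a transcript of any other gene on either strand. The longest exact stretch shared with another Ly49 gene was 34 bases, with the pseudogene Klra13-ps, and with Klra2 it was 24 bases. Klra2 shared 1 of 1898 words with another gene. Klra3, a further Ly49 gene of the same cluster, shared 25.9% of its words, mostly with Klra9 and Klra10. Among the lectins, Clec4d and Clec4e shared 0 words, Clec12a 0.621%, Clec4n 1.01%, Clec2d 3.76% and Clec4a2 7.63%, the last largely with its neighbours Clec4a4 and Clec4b1. These values cover exact matches to annotated transcripts of the reference strain. Reads with mismatches, other strains and unannotated copies were not tested.

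Klra17 was the member that the test called lower in the knockouts. It was measured at 38.5 and 44.9 CPM in the controls (593 and 642 reads) and at 21.0 and 20.4 CPM in the knockouts (318 and 375 reads). Both knockout libraries lay below both controls, and the 95% Poisson intervals, which cover counting error only, ran from 35.5 to 48.6 CPM over the controls and from 18.4 to 23.4 CPM over the knockouts. The means were 41.7 ± 4.54 and 20.7 ± 0.42 CPM (SD, n = 2 each), so that the knockout mean was 49.6% of the control mean. On the log2(CPM + 0.5) scale the difference was −0.99 (SE 0.12, 95% confidence interval −1.28 to −0.71). With limma and Benjamini-Hochberg adjustment over 11781 tested genes its adjusted p was 0.0376. It was the gene with the 18th smallest p, just inside the threshold of 0.05, with Ccdc85c the last gene inside (adjusted p = 0.0389) and Aebp1 the next outside (0.0664). Leaving out a library moved the log2 difference between −1.10 and −0.88, and the limma adjusted p was 0.129 without control 1 and 0.377 without control 2. The adjusted p was 0.302 without the intensity trend of the variance model, and 0.0610 when the reads of Klra17, Klra2 and Klra3 were summed, an alternative added after the data had been seen, with a log2 difference of −0.89.

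**Figure D1:**
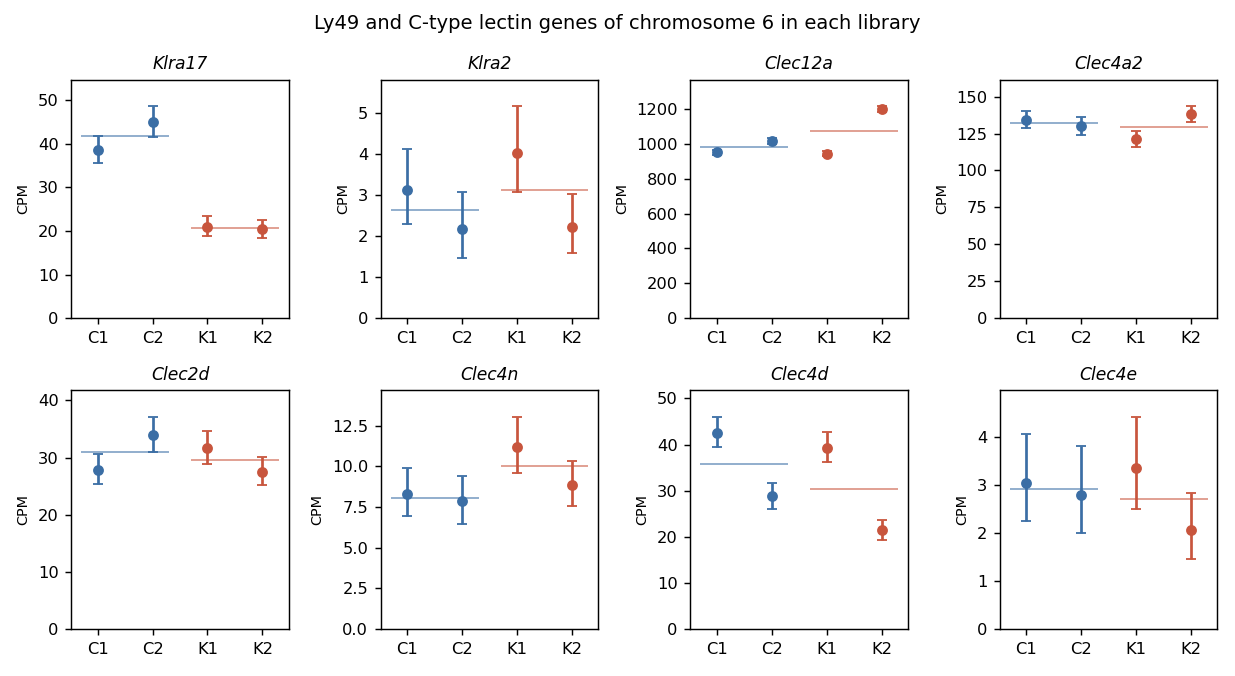
Level of each gene in CPM (vertical axes, from 0) in control 1 and 2 (C1, C2, blue) and knockout 1 and 2 (K1, K2, red); bars are 95% Poisson intervals of counting error and horizontal lines are group means. Klra17 lies at 38.5 and 44.9 CPM in controls and at 21.0 and 20.4 CPM in knockouts, while Clec4d is higher in library 1 than in library 2 of each genotype.

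Some markers of other cells also differed in the same libraries. The 17 measured of 18 stromal markers summed to 2355 and 2899 CPM in control 1 and 2. Their sums in knockout 1 and 2 were 1723 and 1554 CPM. Of the 17, 10 were lower at a limma unadjusted p under 0.05, as were 3.55% of all tested genes. Fbn1, which encodes a matrix fibril protein, was the marker that limma called. It was at 80.7 and 77.9 CPM in the controls and at 46.6 and 45.1 CPM in the knockouts. DESeq2 called 9 of the 17. Over all 11781 tested genes, limma called 0.119% as lower, and DESeq2 called 10 genes higher and 56 lower. The log2 difference was negative for 15 of the 17 and positive for 2, Alpl and Cxcl12. For Alpl, Cxcl12, Pdgfra, Dcn, Lum and Col6a1 the groups overlapped (log2 differences 0.05, 0.04, −0.0049, −0.14, −0.24 and −0.22). The part of stromal cells in the Klra17 difference was not tested, and in bulk RNA fewer cells of a type and less RNA per cell cannot be told apart. Natural killer and T cell markers, of which 2 of 17 were measured (Cd4 and Trac), summed to 2.71 to 4.13 CPM in every library. The defining natural killer genes Ncr1, Klrb1c, Klrd1 and Prf1 are not analysed here.

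Klra2 was scarce, at 3.12 and 2.17 CPM in the controls and 4.03 and 2.23 CPM in the knockouts (31 to 61 reads per library). The groups overlapped, and library 1 was the higher of each genotype. The log2 difference was 0.18 with an interval from −0.54 to 0.89, which stops short of a change of the size of Klra17 in either direction. Klra3 had 11 and 5 reads in the controls and 3 and 1 reads in the knockouts, under the level at which genes were tested.

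Clec12a, which encodes an inhibitory receptor for uric acid crystals on myeloid cells, supplied most of the summed level of these genes. Its values were 951 and 1017 CPM in the controls and 944 and 1200 CPM in the knockouts, and its share of the 8 genes' summed CPM was 78.7% to 84.5%. The highest value was in knockout 2, whose Poisson interval of 1184 to 1216 CPM lay above those of the other libraries, while knockout 1 was the lowest library. The groups overlapped (log2 difference 0.11, SE 0.14, interval −0.21 to 0.43), so the interval does not reach a change of the size of Klra17 in either direction.

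Clec4a2, the inhibitory receptor DCIR, was the steadiest member between the genotypes. It was at 134 and 130 CPM in the controls and at 121 and 138 CPM in the knockouts. The log2 difference was −0.03 (interval −0.26 to 0.20), with some reads possibly shared with Clec4a4 and Clec4b1. Clec2d encodes Clr-b, a lectin-like ligand of natural killer receptors that is also named osteoclast inhibitory lectin. It stood at 27.9 and 33.9 CPM in the controls and at 31.7 and 27.5 CPM in the knockouts, with overlapping groups and a log2 difference of −0.06 (interval −0.38 to 0.27).

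None of the 3 activating receptors passed the test. Clec4n, or Dectin-2, a receptor for fungal mannans, was at 8.31 and 7.84 CPM in the controls and at 11.2 and 8.86 CPM in the knockouts. Its groups did not overlap, with the knockouts higher, but the difference was within the error of the test (log2 difference 0.29, SE 0.18, interval −0.12 to 0.70, limma adjusted p = 0.99975). Clec4d, or MCL, and Clec4e, or Mincle, are receptors for mycobacterial glycolipids encoded side by side. Clec4d was at 42.6 and 28.8 CPM in the controls and at 39.3 and 21.4 CPM in the knockouts (log2 difference −0.27, interval −0.93 to 0.40). Clec4e was at 3.05 and 2.80 CPM in the controls and at 3.37 and 2.07 CPM in the knockouts (log2 difference −0.12, interval −0.74 to 0.50). In both genes the groups overlapped, and the CPM of the 2 libraries of each genotype lay farther apart than the genotype means did.

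**Figure D2:**
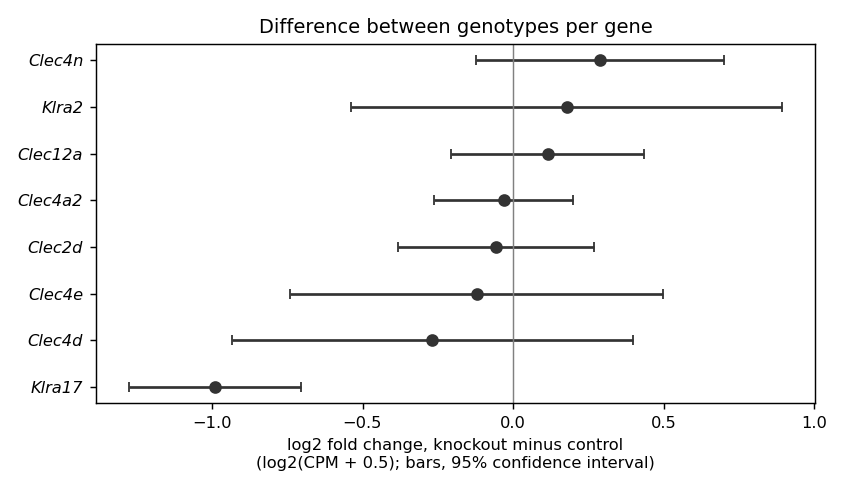
Log2 difference between knockout and control on the log2(CPM + 0.5) scale (horizontal axis) for each gene (vertical axis); points are limma estimates from 2 libraries per genotype and bars are 95% confidence intervals. The interval of Klra17 runs from −1.28 to −0.71 and those of the other 7 genes include 0.

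All 8 genes passed the filter on low values, and limma called 1 of them, Klra17, as did edgeR and DESeq2. Over the whole table limma called 0.161% of tested genes, 0.119% as lower and 0.0424% as higher, and nothing is read from the members' count because that contrast helped to choose them. The other 7 members had 0 genes called by limma, edgeR or DESeq2 and 0 at an unadjusted p under 0.05, a threshold that 4.90% of tested genes passed. Groups did not overlap for 2 of the 8, Klra17 and Clec4n, and for 31.9% of tested genes, 15.4% with the knockouts lower and 16.5% with them higher. The median log2 difference of the 7 was −0.03, beside 0.0016 over all tested genes.

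Within each genotype, library 1 was compared with library 2. Clec4d in control 1 was 1.48 times its level in control 2, and in knockout 1 it was 1.84 times its level in knockout 2. The Poisson intervals of the libraries within each genotype did not meet (39.4 to 46.0 against 26.1 to 31.8 CPM in the controls). On the log2 scale these differences of 0.55 and 0.87 were larger in size than those of 94.1% and 97.9% of tested genes. Klra2 (0.44 and 0.73), Clec4e (0.11 and 0.59) and Clec4n (0.08 and 0.32) were also higher in library 1 of each genotype, with fewer reads behind them, whereas Clec12a was lower there (−0.10 and −0.35). Klra17 differed by −0.22 between the controls and by 0.04 between the knockouts. Over the whole table, 179 of 11781 tested genes (1.52%) differed by more than 0.5 in the same direction between the libraries of each genotype, and Clec4d was the member among them.

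**Figure D3:**
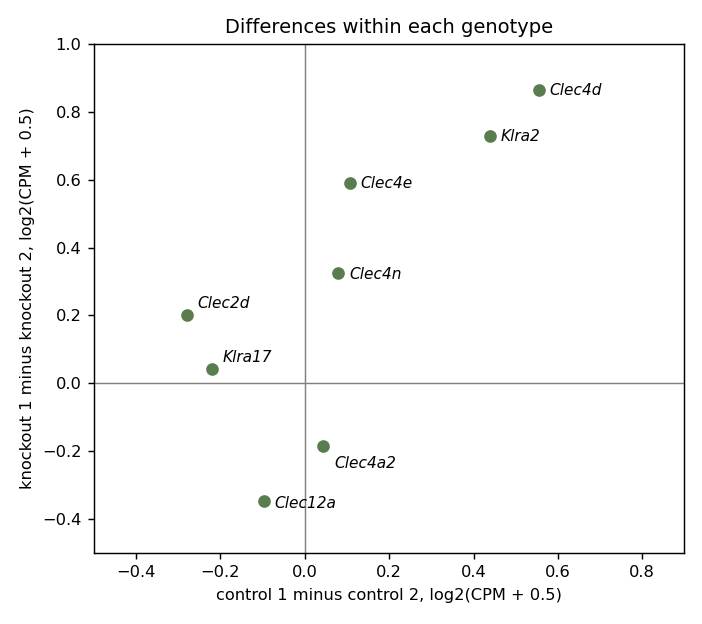
Difference between library 1 and library 2 within the controls (horizontal axis) and within the knockouts (vertical axis), both on the log2(CPM + 0.5) scale, with 1 point per gene. Clec4d lies farthest from the origin, at 0.55 and 0.87, and Klra17 lies at −0.22 and 0.04.

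Dendritic cell markers followed the same libraries as Clec4d. The 8 measured of 14 summed to 277 and 187 CPM in control 1 and 2 and to 324 and 190 CPM in knockout 1 and 2, led by the integrin gene Itgax at 148, 84.6, 176 and 73.3 CPM in control 1, control 2, knockout 1 and knockout 2. The defining dendritic cell genes Flt3, Xcr1, Siglech and Clec9a are not analysed here. Of 13 neutrophil markers 12 were measured, and they summed to 52.7, 93.6, 61.4 and 60.1 CPM in the same order, highest in control 2, where Clec4d was not. The part of these cells in the spread of Clec4d was not tested.

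Levels were compared between genes per kilobase of annotated exon. Clec12a came first at 186 ± 21.6 CPM per kilobase (SD over the 4 libraries), higher than 98.5% of tested genes with a length. Clec4a2 followed at 44.7 ± 2.46, and the library ranges of these 2 genes did not meet each other or that of the next. Klra17 at 26.2 ± 10.4, Clec2d at 24.9 ± 2.56 and Clec4d at 20.7 ± 6.10 CPM per kilobase came next, and neighbours in that order had overlapping ranges over the 4 libraries. This pooled order did not hold within the genotypes. Klra17 was at 32.3 and 37.7 CPM per kilobase in the controls, above Clec2d at 23.0 and 28.0, and at 17.6 and 17.1 in the knockouts, below Clec2d at 26.1 and 22.7. Clec4d was at 26.6 and 18.0 CPM per kilobase in the controls, below Klra17, and at 24.6 and 13.4 in the knockouts, on either side of it. Clec4n (6.38 ± 1.06), Klra2 (1.52 ± 0.46) and Clec4e (0.57 ± 0.11) followed with ranges that did not meet. With the length of the longest protein-coding transcript, an alternative added after the data had been seen, Clec12a was at 411 and Clec4e at 1.12 CPM per kilobase, Clec4a2, Klra17, Clec4d and Clec2d stood at 52.8, 26.2, 24.97 and 24.94, and Clec4n and Klra2 at 7.37 and 1.60, so that only Clec2d and Clec4d, whose ranges overlapped, changed places.

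Across the 4 libraries, the 5 genes whose pattern came nearest to Klra17 were not lectins. Likeness was the root mean square distance between log2(CPM + 0.5) values centred over the 4 libraries, among 9435 other genes with a mean of 5 CPM or more. The nearest was Ccn2, a matricellular growth factor, at a distance of 0.0059, with 93.9 and 110 CPM in the controls and 51.7 and 50.6 CPM in the knockouts. Dbn1, an actin-binding protein (0.078), Col8a1, a short-chain collagen (0.081), Ptprd, a receptor phosphatase (0.095), and Synpo, an actin-associated protein (0.10), followed. The median distance of all candidates was 0.52. Among the members, the distances of the 5 C-type lectins at that level ranged from 0.47 for Clec2d to 0.66 for Clec4n. Other C-type lectins at that level, such as Mrc2, Cd248, Layn and Mrc1, were also candidates, and their distances are not given here. With 4 libraries in 2 groups, any gene that differs by about the same amount between the genotypes comes near, and each value carries the counting error of its reads.

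**Figure D4:**
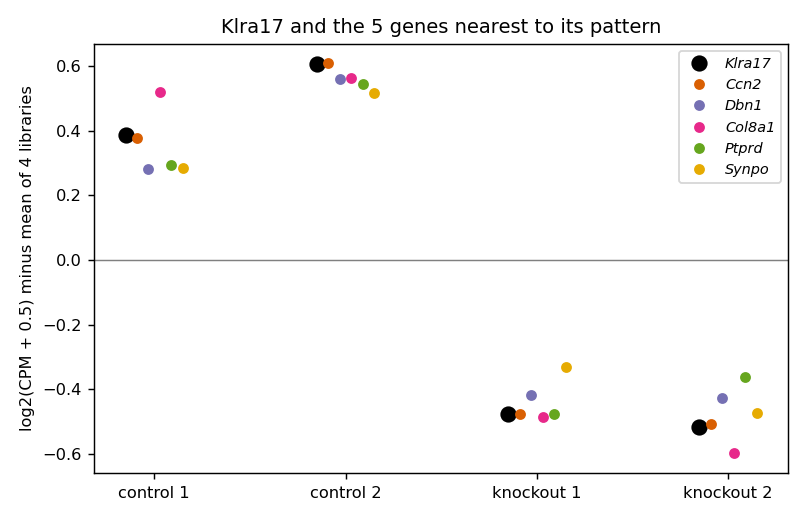
Log2(CPM + 0.5) minus the gene's mean over the 4 libraries (vertical axis) in each library (horizontal axis) for Klra17 (large black points) and the 5 genes nearest to it, offset sideways for legibility. Ccn2 lies at a distance of 0.0059 from Klra17, and all 6 genes lie above their mean in the controls and below it in the knockouts.

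The partners of these receptors were measured alongside them. Of 20 adaptors, kinases and signalling proteins of activating lectin receptors, 20 were tested, 0 were called by limma, edgeR or DESeq2, and 0 had an unadjusted p under 0.05, with a median log2 difference of −0.00052. Over all tested genes, limma called 0.161%, and 4.90% had a limma unadjusted p under 0.05. Counts of 0 among 20 genes lie near those shares, so nothing is read from them. Fcer1g, the adaptor shared by Dectin-2, MCL and Mincle, was at 149 and 144 CPM in the controls and at 131 and 163 CPM in the knockouts. Syk, the kinase that the adaptor recruits, was at 514 and 524 CPM in the controls and at 532 and 531 CPM in the knockouts. Tyrobp, which encodes the adaptor DAP12, was at 273 and 275 CPM in the controls and at 292 and 325 CPM in the knockouts (log2 difference 0.17). Card9, which links Syk to NF-kB, was at 23.7 and 33.0 CPM in the controls and at 28.9 and 19.8 CPM in the knockouts, with overlapping groups.

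On the inhibitory side, 4 of 4 phosphatase genes were tested, with 0 called by limma, edgeR or DESeq2 and 0 at an unadjusted p under 0.05. Ptpn6, which encodes SHP-1, was at 380 and 391 CPM in the controls and at 404 and 399 CPM in the knockouts, and Inpp5d, which encodes the lipid phosphatase SHIP-1, was at 204 and 191 CPM and at 195 and 207 CPM. Of the genes for ligands and counter-receptors, 3 of 5 were measured, with 0 called by limma, edgeR or DESeq2. Over all tested genes, limma called 0.161%, and 4.90% had a limma unadjusted p under 0.05. With lists of 4 and 3 genes, nothing is read from these counts. H2-K1, a class I gene of the kind bound by Ly49Q, was at 228 and 279 CPM in the controls and at 232 and 260 CPM in the knockouts. H2-D1, another class I gene, was the 1 gene of the list at an unadjusted p under 0.05, at 1014 and 1140 CPM in the controls and at 1272 and 1492 CPM in the knockouts (log2 difference 0.36, limma adjusted p = 0.931), and class I genes can share reads.

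Among 41 other lectin receptor genes listed for chromosome 6, 6 were measured and 4 tested, with 0 called by limma, edgeR or DESeq2 and 0 at an unadjusted p under 0.05. As 0.161% of all tested genes were called by limma and 4.90% passed the unadjusted threshold, nothing is read from 0 of 4. Clec5a, an activating receptor that pairs with DAP12, was at 19.3 and 18.1 CPM in the controls and at 23.6 and 13.6 CPM in the knockouts. Cd69, an early activation antigen, was at 3.05 and 3.43 CPM in the controls and at 3.23 and 5.16 CPM in the knockouts. Clec4a3 and Clec4a1, relatives of Clec4a2, stood between 1.68 and 5.08 CPM in every library. Beside the members, the second run held 4 genes in the table, Gabarapl1, Cd69, 2310001H17Rik and Klra3, of which 3 were tested and 0 called by limma, edgeR or DESeq2. The 1 at an unadjusted p under 0.05 was 2310001H17Rik, at 6.36 and 6.72 CPM in the controls and at 8.71 and 10.1 CPM in the knockouts (log2 difference 0.49, limma adjusted p = 0.892). Gabarapl1, an autophagy gene that lies between Clec12a and Klra17, was at 55.1 and 64.0 CPM in the controls and at 50.4 and 58.4 CPM in the knockouts.

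A list of further C-type lectins included several genes of connective tissue. Of 32 listed, 17 were measured, all but Cd207 on other chromosomes, and 15 were tested, with 0 called by limma, edgeR or DESeq2. At an unadjusted p under 0.05 there were 4, all lower in the knockouts, and 3.55% of tested genes were lower at that threshold. The median log2 difference of the 15 was −0.24. The 4 were Mrc2, a collagen uptake receptor (24.5 and 26.8 CPM in the controls, 17.6 and 15.4 CPM in the knockouts), Cd248, a receptor of fibroblasts and pericytes (12.08 and 12.1, then 8.05 and 5.27 CPM), the matrix proteoglycan Vcan (28.8 and 25.5, then 21.5 and 18.7 CPM) and Clec11a, a growth factor of bone-forming cells (3.51 and 4.20, then 1.72 and 2.50 CPM). Their limma adjusted p lay between 0.290 and 0.843. Summed stromal markers were likewise lower in both knockouts, and their part in these values was not tested. Mrc1, the macrophage mannose receptor, was at 20.6 and 17.2 CPM in the controls and at 25.7 and 17.1 CPM in the knockouts, with overlapping groups. Layn, a hyaluronan receptor, was at 83.2 and 109 CPM and at 133 and 93.0 CPM, also with overlapping groups. Cd93 overlapped too, at 37.4 and 19.8 CPM and at 31.3 and 25.1 CPM. Colec12 (79.9 and 89.2, then 76.9 and 70.9 CPM) and Ly75 (13.5 and 16.1, then 10.0 and 13.2 CPM) had both knockouts below both controls. Groups lay that way for 15.4% of tested genes, and both genes' log2 intervals included 0. Of the 15, 11 log2 differences were negative and 4 positive.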

How the data were processed

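The authors deposited 1 table of normalised signal per gene and library. Per the submitters' processing notes, the build was mm10 (GRCm38) and the tools included edgeR, STAR and Subread's featureCounts. Tool versions, annotation release, strand setting and the filter on low genes were not stated there. In every column of the deposited signal, 100% of values were whole multiples of the smallest positive value within 0.001 reads, which gave back whole reads, so the signal was read as CPM of a scaled library total. Overlapping genes can share reads if counting ignored strand. Recovered reads of every pair of libraries differed beyond sampling noise (chi-square test).

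limma with an intensity trend was fitted to log2(CPM + 0.5) for the 11781 genes that reached 1 CPM in 2 or more libraries, with a single genotype term, 2-sided, and Benjamini-Hochberg adjustment over all of them; 7.52 residual degrees of freedom remained, 5.52 from the prior. Fold changes on this scale understate changes of low genes. The smallest p that exact permutation of 2 against 2 libraries allows for a gene is 0.333. Intervals of reads are exact 95% Poisson intervals. When this comparison was simulated for 11634 genes, the share of truly changed genes called by limma was 38.7% at 1.5-fold (62 genes), 75.4% at 2-fold (69 genes) and 96.7% at 4-fold (60 genes), with 14 calls among 11443 unchanged genes. The members, gene lists, alternatives and the rule for named genes were chosen with earlier results of these data known. Named were the members, listed genes at an unadjusted p under 0.05, abundant listed genes, the 5 genes nearest to Klra17 and leading markers; others, such as Card9, Klra3, Mrc1, 2310001H17Rik and Gabarapl1, were named after their values were seen. Positions and transcripts came from GENCODE M21 and upstream sequences from RefSeq on GRCm38.p6, and 12680 of 12799 symbols had a single position. The members' fold changes and the numbers of genes called were recomputed with changed pseudocounts, low-value filters, library scalings and variance models, with a replicate block, with each library left out, and with edgeR and DESeq2 run on recovered reads; levels per kilobase were recomputed with another transcript length, and likeness, library 1 against library 2 and the partner lists were not recomputed apart from calls by edgeR and DESeq2. B cell markers (2 of 8 measured) summed to 3.08 to 4.49 CPM and mast cell and basophil markers (1 of 8) to 0.33 to 0.87 CPM. Software was Python 3.11.15 with pandas 2.3.3, SciPy 1.17.1, NumPy 2.4.6, matplotlib 3.10.9 and Biopython 1.88, and R 4.3.3 with DESeq2 1.42.0, edgeR 4.0.16 and limma 3.58.1.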

Additional observations from a re-analysis of the deposited data

How the results depend on the processing

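Klra17 stayed lower in the knockouts under every alternative run, and its call was lost without control 1, without control 2, without an intensity trend and with Ly49 reads summed. The number of members called was 0 without an intensity trend and 0 to 1 with a library left out. The table as a whole had 5 higher and 14 lower genes called. It had 2 and 2 without an intensity trend, 10 and 56 with DESeq2, and 2 to 16 higher and 4 to 60 lower with a library left out, where the lone library of a genotype is assumed to vary like the other group. Across all tested genes, differences between library 1 and library 2 were uncorrelated between the genotypes (−0.0016), so the numbers were not taken as pairs. Single genes such as Clec4d did deviate the same way. Of the 179 genes that differed by more than 0.5 in the same direction in each genotype, 137 were higher in library 1. With a replicate block 18 higher and 71 lower genes were called, and Klra17 had a limma adjusted p of 0.000492. Uncalled members changed sign with a library left out: log2 differences ranged from −0.19 to 0.54 for Klra2, −0.059 to 0.29 for Clec12a, −0.70 to 0.16 for Clec4d, −0.42 to 0.18 for Clec4e, −0.12 to 0.062 for Clec4a2 and −0.20 to 0.082 for Clec2d. Clec4n stayed between 0.13 and 0.45 in these fits. The causes of these shifts were not tested. With a filter at a mean of 5 CPM, Klra2 and Clec4e were not tested. With 31 to 61 and 38 to 51 reads per library, depth limits what Klra2 and Clec4e can show.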
